A study of Homo sapiens with 12 samples.

Results

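The 10 enzymes that build, elongate and desaturate fatty acids were followed across all 12 libraries of a leukaemia cell line study. They were chosen by name (ACLY, ACACA, FASN, SCD, ELOVL1, ELOVL5, ELOVL6, FADS1, FADS2 and ACSL3). All 10 were found, as 11 of the 26231 gene IDs in the deposited normalized table, because ACACA carries 2 IDs.

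The cells were the ALDH-positive fraction of 697 (EU3), a human B-cell precursor leukaemia line. ALDH-positive cells have high aldehyde dehydrogenase activity and are sorted with a fluorescent substrate. SH2 cells carry a doxycycline-inducible shRNA against IGF2BP1, an RNA-binding protein, with an eGFP reporter that doxycycline switches on. SH2 cells given doxycycline were sorted for the reporter, and SH2 cells without doxycycline were left unsorted for it as far as the labels say. The other libraries come from 697 (EU3) cells that the labels call the control for doxycycline, with and without the drug. The labels do not say whether these carry the scrambled shRNA mentioned in the protocol. Each of 4 sets was its own ALDH selection and its own doxycycline treatment. Treated and untreated SH2 cells came from sets 1 to 4, which gives n = 4 for each. Treated and untreated control cells came from sets 2 and 4 only, which gives n = 2 for each.

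Cells make fatty acids from citrate that leaves the mitochondria. ACLY splits the citrate to acetyl-CoA, ACACA carboxylates acetyl-CoA to malonyl-CoA, and FASN joins these units into palmitate. ELOVL6 lengthens palmitate to stearate, SCD places the first double bond, and ELOVL1 extends very long saturated and monounsaturated chains. FADS2, ELOVL5 and FADS1 act in turn on dietary polyunsaturated fatty acids to give arachidonate and its relatives, and ACSL3 couples fatty acids to CoA for use in lipids. Most of these genes are known targets of the SREBP transcription factors, which are released from the endoplasmic reticulum when sterols are low.

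The promoters of the 4 genes on which the comparisons below turn and that RefSeq lists are shown first, since the genes are thought to share SREBP control. Of the 10 members 9 matched the RefSeq table of promoters on GRCh38.p14 (not FASN). Each gene was taken at its first entry in that table, and any other starts of a gene were not searched. Each line gives the 250 bases before the RefSeq start, 5′ to 3′ on the gene's strand. Capitals mark GGGCGG, the core of Sp-type sites, and CCAAT, on either strand.
ACLY, chr17:41919023-41919272, minus strand: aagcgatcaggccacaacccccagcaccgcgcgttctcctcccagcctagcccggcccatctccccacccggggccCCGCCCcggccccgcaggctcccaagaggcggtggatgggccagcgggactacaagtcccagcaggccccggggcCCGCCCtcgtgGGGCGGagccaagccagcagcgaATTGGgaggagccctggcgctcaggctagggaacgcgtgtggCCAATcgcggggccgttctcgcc
ELOVL6, chr4:110198616-110198865, minus strand: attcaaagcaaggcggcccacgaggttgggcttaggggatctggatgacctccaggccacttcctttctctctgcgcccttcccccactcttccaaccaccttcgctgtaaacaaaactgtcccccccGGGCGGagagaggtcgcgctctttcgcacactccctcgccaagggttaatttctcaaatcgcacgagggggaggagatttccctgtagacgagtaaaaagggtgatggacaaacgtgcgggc
FADS1, chr11:61817004-61817253, minus strand: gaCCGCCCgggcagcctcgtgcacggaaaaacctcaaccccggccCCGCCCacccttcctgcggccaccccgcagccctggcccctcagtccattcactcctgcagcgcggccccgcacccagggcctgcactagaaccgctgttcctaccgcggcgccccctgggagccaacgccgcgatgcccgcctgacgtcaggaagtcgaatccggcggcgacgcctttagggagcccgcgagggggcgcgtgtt
FADS2, chr11:61815953-61816202, plus strand: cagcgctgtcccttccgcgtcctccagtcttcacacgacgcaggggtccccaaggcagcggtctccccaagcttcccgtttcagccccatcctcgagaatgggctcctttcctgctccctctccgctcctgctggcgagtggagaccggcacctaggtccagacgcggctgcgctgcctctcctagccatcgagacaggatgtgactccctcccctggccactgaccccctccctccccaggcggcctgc

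In these windows ACLY held 3 copies of GGGCGG and 2 of CCAAT, ELOVL6 held 1 GGGCGG, FADS1 held 2 GGGCGG, and FADS2 held neither motif. Over the 9 members, GGGCGG was found in 7 and CCAAT in 5, against 42.3% and 33.0% of all 27305 promoters in the table. In ELOVL1 a GGGCGG and a CCAAT shared bases. TCACNCCAC, one form of the sterol regulatory element, was in 0 of the 9 members and 0.875% of all promoters. At so low a share 0 of 9 is likely for any genes, so the count does not bear on SREBP control, which was not tested. CACGTG, the E-box, was in 1 member (ELOVL5) and 6.49% of all. The starts of FADS1 and FADS2 in these entries lie 800 bases apart on opposite strands of chromosome 11, so that each of these starts lies inside the other gene. Other starts of either gene would give other windows and another distance.

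On GRCh38 with GENCODE v29, ACLY spans chromosome 17, 41866908 to 41930542, ACACA 37084988 to 37406818 and FASN 82078333 to 82098332 of the same chromosome, all on the minus strand. SCD lies on chromosome 10, 100347124 to 100364834, plus strand. ELOVL1 lies on chromosome 1, 43363397 to 43368074, ELOVL5 on chromosome 6, 53267398 to 53349179, and ELOVL6 on chromosome 4, 110045846 to 110199199, all on the minus strand. FADS1 (61799625 to 61829318, minus) and FADS2 (61792980 to 61867354, plus) overlap on chromosome 11. ACSL3 lies on chromosome 2, 222860934 to 222944639, plus strand. The libraries sample the end of a transcript next to its poly(A) tail, so counts come mainly from the last exon. FADS1 and FADS2 share 490 exon bases, which lie 16637 bases from the end of FADS1 and 38757 bases from the end of FADS2, far from where reads collect. The second ID of ACACA had 8 counts in all 12 libraries together and was not tested. The pseudogenes SCDP1 and FADS2P1 had 0 counts.

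Libraries held 2210291 to 3370952 reads assigned to genes. The 10 members passed the filter on low counts and were tested with 11968 genes in all. Counts per library ran from 15 to 60 for ACACA, the thinnest, and from 582 to 2180 for SCD, the deepest. All 12 B-lineage marker genes were detected, with a summed level of 1567 to 4018 CPM (counts scaled to the library size). The sum of 7 T-cell markers was 27.9 to 114 CPM in SH2 libraries. CD3G alone gave 20.9 to 85.2 CPM there, while CD2 and CD5 were at 0. CD3E was at most 0.419 CPM and TRAC at most 1.68 CPM in SH2 libraries. In control libraries the sum was 645 and 15.3 CPM with doxycycline (sets 2 and 4) and 604 and 60.0 CPM without. Fibroblast markers summed to at most 3.02 CPM in SH2 libraries, against 6.64 to 18.1 CPM in control libraries. Nearly all of the control sum was COL1A1, at 6.17 to 18.1 CPM. COL1A2 was at most 0.475 CPM there and COL3A1 at 0. Myeloid markers summed to at most 7.59 CPM and adipocyte markers to at most 0.759 CPM. IGKC, the immunoglobulin kappa constant gene, was at most 1.81 CPM in SH2 libraries, against 847 to 1505 CPM in control libraries. Libraries labelled control correlated with SH2 libraries at 0.770 to 0.868, below the 0.925 to 0.971 among themselves. IGF2BP1, the target, had 6.28, 14.8, 25.0 and 16.2 CPM in SH2 cells with doxycycline (sets 1 to 4), against 21.7, 30.5, 39.2 and 32.9 CPM without. It was lower in 4 of 4 sets, by a log2 fold change of -0.99 ± 0.43 (SE; edgeR adjusted p = 0.983), so its loss did not pass the test over all genes. In control cells it had 4 counts over both libraries with doxycycline and 3 without, against 178 and 386 counts over the 4 treated and the 4 untreated SH2 libraries. The libraries labelled control thus held less of the target than the cells with the induced shRNA, which goes against their use as the same line without the knockdown. Whether the line, the clone or an exchange of labels lies behind this cannot be told apart here, and it touches each comparison of SH2 with control cells, the difference of their responses included. The treated SH2 library of set 4 stood apart: it correlated with other SH2 libraries at 0.832 to 0.908, against 0.893 to 0.967 among the others.

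**Figure D1:**
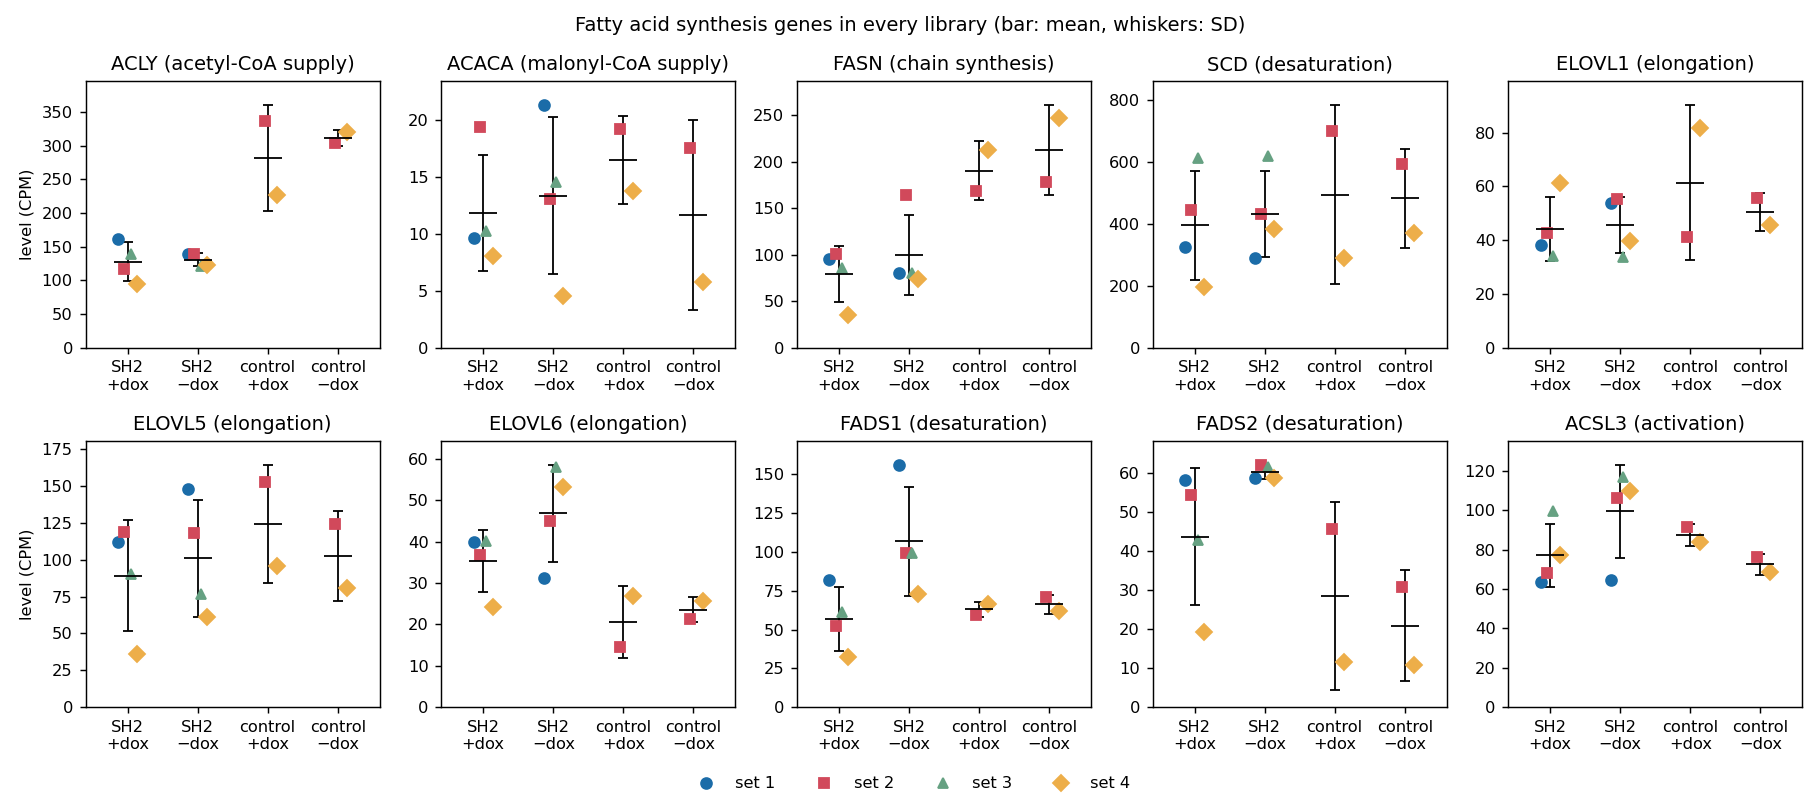
Level of each of the 10 enzymes in every library, in CPM (linear axis from 0), by group, with the mean as a bar and the SD as whiskers (n = 4 for SH2 groups, n = 2 for control groups). ACLY and FASN lie lower in all 8 SH2 libraries than in all 4 control libraries. The diamond of set 4 is the lowest treated SH2 library in 8 of the 10 panels.

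The first question was whether these enzymes differed between SH2 cells with and without doxycycline. This comparison joins the shRNA, the drug and, as far as the labels say, the sort for the reporter, which cannot be told apart in it. In SH2 cells 0 of the 10 were called with doxycycline against without by edgeR's quasi-likelihood test at an adjusted p of 0.05, where 0.0167% of all genes tested were. By unadjusted p under 0.05 there was 1, FADS1, against 4.88% of all genes, and DESeq2's Wald test and limma-trend also called 0 of the 10. Standard errors of the members' log2 fold changes ran from 0.23 to 0.47, which is the precision behind this count. All 10 fold changes were below 0, between -0.91 and -0.03, with a median of -0.25. Over all genes the median was 0.03 and 46.4% were below 0. The 10 fold changes come from the same libraries, so their signs are not independent. Within sets 1 to 4, 6, 7, 6 and 8 of the 10 members were lower with doxycycline.

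FADS1, the last desaturase on the way to arachidonate, had the largest difference. It had 82.1, 52.0, 61.3 and 32.3 CPM in treated SH2 cells (sets 1 to 4), against 156, 99.6, 99.4 and 72.7 CPM in untreated SH2 cells. Treated libraries were lower in each set, by log2 ratios of -0.93, -0.94, -0.70 and -1.17, and the groups overlapped only through treated set 1 and untreated set 4. The fitted log2 fold change was -0.91 ± 0.30 (SE; edgeR unadjusted p = 0.00812, adjusted p = 0.983), 1.88-fold lower, and it did not pass. Without the treated library of set 4 it was -0.71. A block for the set gave -0.93 with an adjusted p of 0.202.

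FADS2, the desaturase that opens the same route, had 58.2, 54.3, 42.8 and 19.2 CPM in treated SH2 cells, against 58.6, 62.0, 61.5 and 58.5 CPM in untreated SH2 cells. The groups did not overlap, as for 2.03% of all genes in the lower and 1.38% in the higher direction, but in set 1 the 2 libraries were nearly equal. The untreated libraries lay within a narrow band, while the treated ones spread widely down to set 4. The log2 fold change was -0.47 ± 0.42 (SE; edgeR adjusted p = 0.986), and -0.22 without the treated library of set 4. ACSL3, the acyl-CoA synthetase of lipid droplets and the endoplasmic reticulum, had 63.7, 68.0, 99.5 and 77.1 CPM in treated SH2 cells, against 64.8, 106, 117 and 110 CPM in untreated SH2 cells. It was lower in 4 of 4 sets, again with almost no difference in set 1, at -0.37 ± 0.24 (SE; edgeR adjusted p = 0.983). These 3 genes were the members lower in every set, a pattern that 10.1% of all genes showed.

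The core of the pathway gave mixed signs. ACLY had 161, 116, 139 and 94.7 CPM in treated SH2 cells, against 139, 138, 121 and 123 CPM in untreated SH2 cells, with a log2 fold change of -0.03 ± 0.23. It was lower in 2 sets and higher in 2. FASN had 95.5, 101, 86.0 and 35.4 CPM in treated SH2 cells, against 80.3, 164, 80.0 and 74.2 CPM in untreated SH2 cells, at -0.33 ± 0.34. SCD had 326, 446, 612 and 196 CPM in treated SH2 cells, against 288, 433, 618 and 383 CPM in untreated SH2 cells, at -0.12 ± 0.38. SCD followed the set more than the drug in sets 1 to 3, with set 3 the highest in either state. ACACA, at 8.08 to 19.4 CPM in treated and 4.53 to 21.3 CPM in untreated SH2 cells, lay on either side of no difference between sets, at -0.17 ± 0.47.

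Among the elongases, ELOVL6 had 39.8, 36.8, 40.2 and 24.3 CPM in treated SH2 cells, against 31.1, 45.1, 58.0 and 53.1 CPM in untreated SH2 cells, at -0.41 ± 0.28. It was lower in 3 of 4 sets. ELOVL5 had 112, 118, 90.6 and 35.7 CPM in treated SH2 cells, against 148, 118, 76.4 and 61.0 CPM in untreated SH2 cells, so sets 1 and 2 were higher than sets 3 and 4 in either state. Its fold change was -0.18 ± 0.37. ELOVL1 spanned 34.3 to 61.3 CPM in treated and 33.7 to 55.2 CPM in untreated SH2 cells, at -0.05 ± 0.28, with its highest treated value in set 4.

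Set 4 weighed on these values. Its treated SH2 library was the lowest of its group for 8 of the 10 members, where 33.4% of all genes showed this, and the lowest of all 12 libraries for 5, against 17.7% of all genes. The median log2 ratio over the members, treated over untreated, was -0.87 in set 4, against -0.02, -0.27 and -0.12 in sets 1 to 3. Without this library the log2 fold change was -0.08 for FASN, 0.10 for SCD, 0.09 for ELOVL5 and 0.09 for ACLY. That library also had the lowest B-lineage marker sum (1567 CPM) and, among SH2 libraries, the highest T-cell marker sum (114 CPM). The treated SH2 library of set 3 had a B-lineage sum almost as low (1661 CPM). Its level summed over the members was the highest of the treated SH2 libraries, at 1215 CPM against 584 CPM in set 4. The T-cell sum does not stand for every marker in it, since CD2 and CD5 were at 0 in all SH2 libraries. The part of either sum in the result was not tested.

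**Figure D2:**
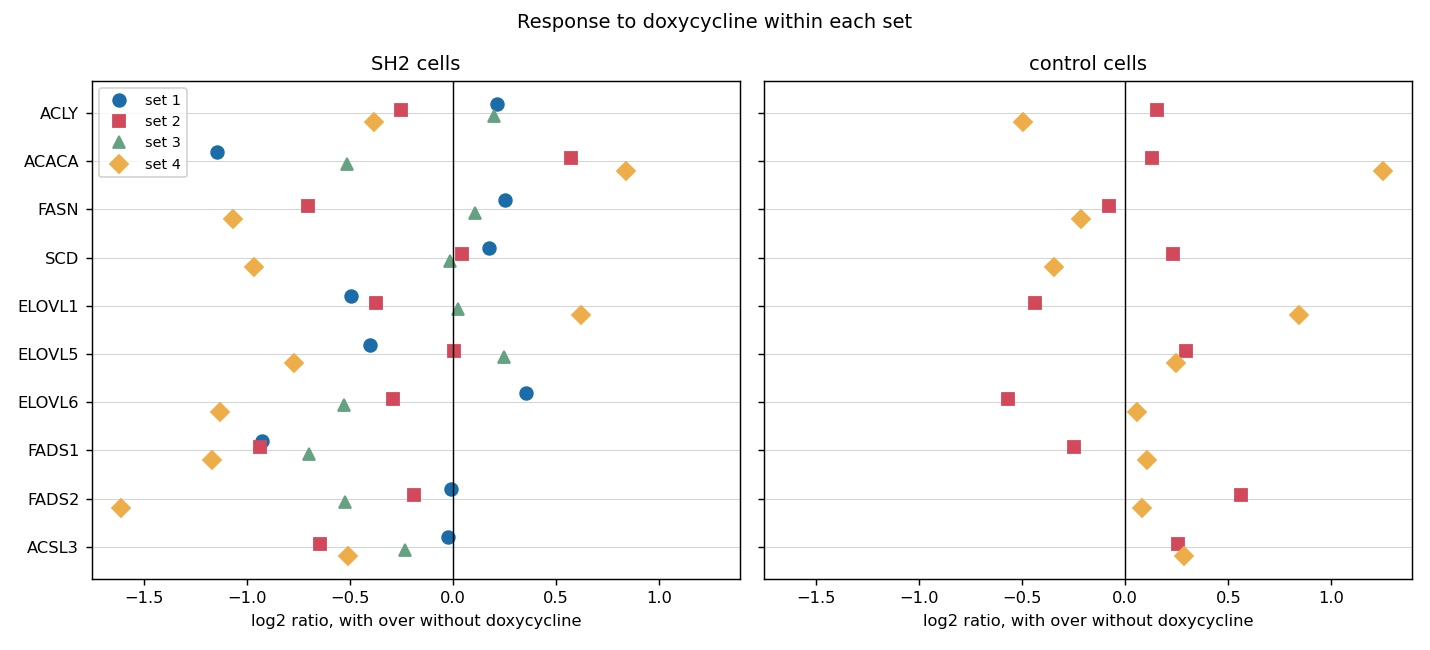
Log2 ratio of each enzyme with over without doxycycline within each set, in SH2 cells (left, sets 1 to 4) and control cells (right, sets 2 and 4). Only FADS1, FADS2 and ACSL3 lie left of 0 in all 4 SH2 sets, and FADS2 and ACSL3 lie right of 0 in both control sets.

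Control cells with doxycycline were set against control cells without it. In them 0 of the 10 members were called by edgeR (0% of all genes), 0 had an unadjusted p under 0.05 (0.685% of all genes), and DESeq2 and limma-trend called 0. Of the fold changes 6 were above and 4 below 0, from -0.20 (ELOVL6) to 0.52 (ACACA), with a median of 0.15. ACSL3 had 91.3 and 83.7 CPM with doxycycline (sets 2 and 4), against 76.4 and 68.7 CPM without. It was the member whose treated and untreated control libraries did not overlap, as for 12.3% of all genes in the higher direction. FADS2 had 45.5 and 11.5 CPM with doxycycline, against 30.8 and 10.8 CPM without, so the 2 sets differed from each other far more than the drug states did. Set 2, the higher of the pair, was also the set with the high T-cell marker sum in control cells, whose part was not tested.

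The difference between the responses of SH2 cells and of the libraries labelled control was called for 0 of the 10 members (0% of all genes; 0 had an unadjusted p under 0.05, against 0.969%, and DESeq2 and limma-trend called 0). It was below 0 for 9, with a median of -0.39, against 49.2% of all genes and a median of 0.01. The 10 differences come from the same 12 libraries, so their signs are not independent. The largest were -0.94 ± 0.75 for FADS2, -0.84 ± 0.51 for FADS1 and -0.64 ± 0.41 for ACSL3 (SE; edgeR adjusted p = 1 for each). FADS2 and ACSL3 were lower with doxycycline in 4 of 4 SH2 sets and higher in 2 of 2 control sets, which 1.55% of all genes were. Without the control library of set 2 with doxycycline, the FADS2 difference was 0.38.

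Members were called only between SH2 cells and the libraries labelled control. There it was 1 of 10 in either state, near the share of all genes called (11.1% with and 7.84% without doxycycline). The libraries labelled control held almost no IGF2BP1 and much IGKC, so these are differences between libraries so labelled. ACLY, which makes the acetyl-CoA, was lower in SH2 cells by more than 2-fold. FASN was also lower in every SH2 library, as 8.59% of all genes were, though it did not pass. ELOVL6, FADS1 and FADS2 were higher in every untreated SH2 than untreated control library, as 15.5% of all genes were. They did not pass either.

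Without doxycycline 1 of the 10 members was called, ACLY, which was lower, where 7.84% of all genes were called, 4.9% lower and 2.94% higher. ACLY had 139, 138, 121 and 123 CPM in untreated SH2 cells, against 303 and 320 CPM in untreated control cells. The untreated SH2 libraries lay close together and far below the control ones. Its log2 fold change was -1.26 ± 0.27 (SE; edgeR adjusted p = 0.00913), 2.39-fold lower. The call rests on both control libraries. Without set 2 of untreated control cells the fold change was -1.29 (adjusted p = 0.0733), without set 4 it was -1.21 (0.0758), and in sets 2 and 4 alone it was -1.25 (0.0932).

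With doxycycline ACLY was again the 1 member called, where 11.1% of all genes were called, 6.48% lower and 4.6% higher. It had 161, 116, 139 and 94.7 CPM in treated SH2 cells, against 337 and 227 CPM in treated control cells. The log2 fold change was -1.14 ± 0.27 (SE; edgeR adjusted p = 0.0128), 2.21-fold lower. Without set 2 of treated control cells it was -0.83 (adjusted p = 0.188), and in a fit on the compared groups alone it was -1.16 (0.0755). Within sets, ACLY was lower in SH2 than control cells by log2 ratios of -1.54 and -1.26 with doxycycline (sets 2 and 4), and by -1.13 and -1.37 without. Across states, its 8 SH2 libraries spanned 94.7 to 161 CPM, against 227 to 337 CPM in the 4 control libraries.

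FASN spanned 35.4 to 164 CPM in SH2 libraries, against 168 to 247 CPM in control libraries. ACLY and FASN were the 2 members with all SH2 below all control libraries, as 8.59% of all genes were. For FASN the gap was narrow: the untreated SH2 library of set 2, at 164 CPM, lay just under the treated control library of the same set, at 168 CPM. The log2 fold change was -1.26 ± 0.40 with doxycycline (edgeR adjusted p = 0.0585) and -1.09 ± 0.40 without (adjusted p = 0.128), and neither passed. With doxycycline, FASN passed in DESeq2's Wald test (adjusted p = 0.033) and with no filter on low counts (0.00613). Without the untreated SH2 library of set 2 it passed in either state (adjusted p = 0.0395 with doxycycline; -1.46 and 0.0418 without). Without doxycycline FASN also passed with no filter (0.0449) and without the treated SH2 library of set 4 (0.0405). It did not pass under the other alternatives. In refits other than leaving out a library, its adjusted p reached 0.143 with and 0.530 without doxycycline. Without set 2 of untreated control cells the FASN value was -1.30, and without set 4 it was -0.83. With doxycycline, leaving out a library moved FASN between -1.43 and -1.02. Its within-set log2 ratios were -0.74 and -2.59 with doxycycline and -0.12 and -1.73 without, so the difference was larger in set 4.

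ELOVL6 had 39.8, 36.8, 40.2 and 24.3 CPM in treated SH2 cells, against 14.4 and 26.7 CPM in treated control cells. Without doxycycline it had 31.1, 45.1, 58.0 and 53.1 CPM in SH2 cells, against 21.4 and 25.7 CPM in control cells. The groups did not overlap without doxycycline and overlapped with it, through set 4. The log2 fold change was 0.78 ± 0.36 with doxycycline (edgeR adjusted p = 0.196) and 0.99 ± 0.36 without (adjusted p = 0.124). With doxycycline it was 0.39 without set 2 and 1.28 without set 4 of treated control cells. Counts of ELOVL6 over those of FASN within a library were 0.366 to 0.686 in treated and 0.275 to 0.725 in untreated SH2 cells, against 0.0857 to 0.126 in treated and 0.104 to 0.12 in untreated control cells. This ratio was chosen after the values were seen and is given as a description; the reads per transcript of the 2 genes need not be alike.

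FADS2 was higher in untreated SH2 cells, at 58.6, 62.0, 61.5 and 58.5 CPM, against 30.8 and 10.8 CPM in untreated control cells. The log2 fold change was 1.54 ± 0.57 (SE; edgeR adjusted p = 0.129), which did not pass. It passed when a block for the set was added (1.62, adjusted p = 0.0194), with no filter on low counts (0.00396) and on the compared groups alone (0.0312). It did not pass under the other alternatives, and the value turned on the control libraries: without set 2 of untreated control cells it was 2.47 (adjusted p = 0.133), without set 4 it was 0.97 (0.565), and in sets 2 and 4 alone 1.55 (0.333). With doxycycline it was 0.60 ± 0.54 (adjusted p = 0.532), and it was 1.92 without set 2 and -0.071 without set 4 of treated control cells. FADS1 had 156, 99.6, 99.4 and 72.7 CPM in untreated SH2 cells, against 70.7 and 61.8 CPM in untreated control cells, at 0.69 ± 0.37 (adjusted p = 0.333). A block for the set gave 0.31 (adjusted p = 0.503), and without set 1 of untreated SH2 cells it was 0.45. With doxycycline FADS1 had 82.1, 52.0, 61.3 and 32.3 CPM in SH2 cells, against 59.6 and 66.5 CPM in control cells, at -0.15 ± 0.36, and a block for the set gave -0.56 (adjusted p = 0.155). Not overlapping without doxycycline were 2 members in the lower direction (ACLY and FASN; 17.4% of all genes) and 3 in the higher (ELOVL6, FADS1 and FADS2; 15.5%). With doxycycline these were 2 lower (ACLY and FASN; 16.6%) and 0 higher (15.4%).

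The other members did not separate the cells. SCD spanned 196 to 618 CPM in SH2 libraries and 291 to 699 CPM in control libraries, and in control cells set 2 was higher than set 4 in either state. ELOVL5 spanned 35.7 to 148 CPM in SH2 libraries and 81.0 to 153 CPM in control libraries, ELOVL1 33.7 to 61.3 CPM and 41.0 to 81.8 CPM, ACSL3 63.7 to 117 CPM and 68.7 to 91.3 CPM, and ACACA 4.53 to 21.3 CPM and 5.78 to 19.2 CPM. Their log2 fold changes ran from -0.48 to 0.46 in the comparisons with and without the drug. Summed over the 10 members the level was 960 ± 268 CPM in treated SH2 cells and 1369 ± 366 CPM in treated control cells. Without doxycycline it was 1134 ± 145 CPM in SH2 cells and 1354 ± 168 CPM in control cells (SD, n = 4 and n = 2). In these bulk libraries a lower level in each cell cannot be told apart from fewer cells that express the gene.

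**Figure D3:**
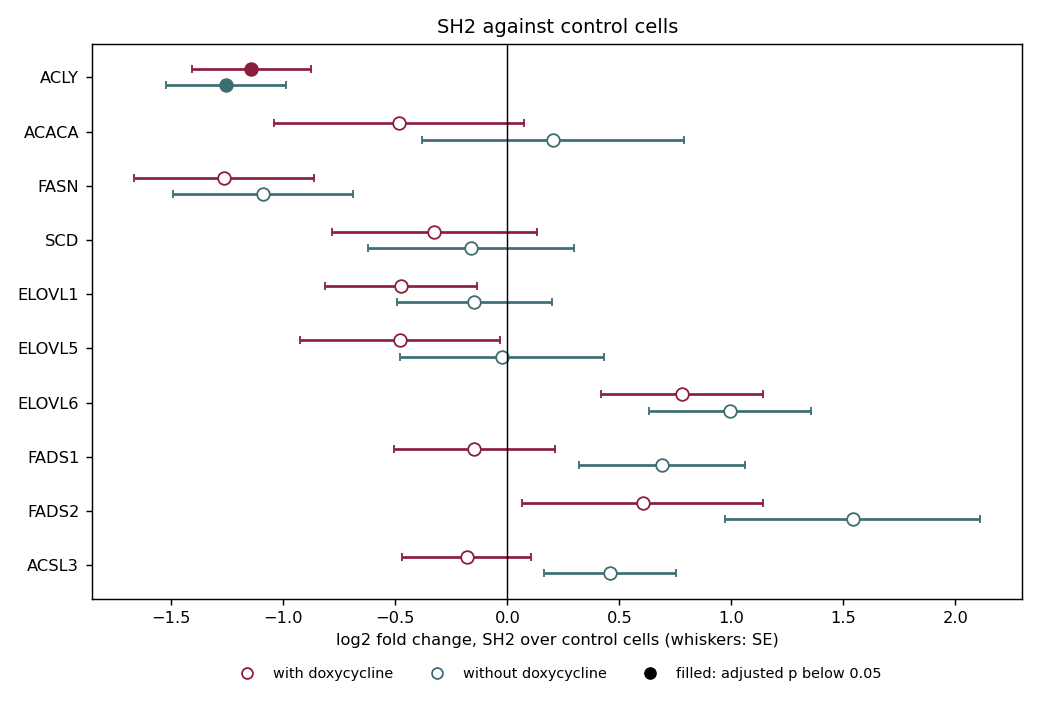
Log2 fold change of SH2 over control cells for each enzyme, with doxycycline (upper point) and without (lower point), with the SE as whiskers. Filled points have an edgeR adjusted p below 0.05; only ACLY is filled, at -1.14 and -1.26.

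The pathways around these enzymes were read from 10 lists with 109 genes, of which 89 were tested. With against without doxycycline, 0 of the 89 were called in SH2 cells, in control cells or for the difference between them. In SH2 against control cells 10 of the 89 (11.2%) were called with doxycycline, 4 higher and 6 lower, against 11.1% of all genes. Without doxycycline it was also 10 (11.2%), 2 higher and 8 lower, against 7.84% of all genes. These counts fell when either control library of the state was left out, and so did the count of calls over all genes. Medians over the 89 genes were -0.05 with and -0.01 without doxycycline, against 0.04 and 0.03 over all genes.

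Of the 20 calls in these lists (10 in each state), 19 were lost under at least 1 of up to 21 alternatives; LSS with doxycycline was kept in all. PDHB, a subunit of the pyruvate dehydrogenase that feeds the citrate pool, averaged 22.9 ± 14.2 CPM in treated SH2 cells and 76.9 ± 6.33 CPM in treated control cells, at -1.75 ± 0.48 (SE; edgeR adjusted p = 0.032). Its call was lost under 7 of 21 alternatives (0.0518 to 0.164), among them the compared groups alone and leaving out treated SH2 set 2, 3 or 4. It was the 1 gene called of 6 tested in the acetyl-CoA and NADPH list; 0 were called without doxycycline, where PDHB had an adjusted p of 0.152 and 4 of the 6 fold changes were above 0. ACACB, the mitochondrial-membrane carboxylase whose malonyl-CoA restrains fatty acid oxidation, averaged 2.88 ± 1.06 CPM in untreated SH2 cells and 12.9 ± 0.734 CPM in untreated control cells, at -2.13 ± 0.57 (adjusted p = 0.0351). Its call was lost under 7 of 21 alternatives. Among them were a block for the set (adjusted p = 0.0548) and leaving out untreated SH2 set 1, 2 or 4 or untreated control set 2 or 4. In the 2 losses other than leaving out a library, the adjusted p reached 0.124. With doxycycline ACACB did not pass (adjusted p = 0.0549). It was the 1 gene called of 6 tested in its list, and the other 5 had fold changes above 0 without doxycycline. CPT1A, the carnitine transferase that malonyl-CoA inhibits, was higher in SH2 cells in either state, at 31.7 to 103 CPM over 8 libraries against 15.2 to 22.9 CPM in 4 control libraries. Its log2 fold change was 1.58 ± 0.38 with doxycycline (adjusted p = 0.0161) and 1.68 ± 0.39 without (adjusted p = 0.0165). The calls were lost under 2 and 4 of 21 alternatives (0.051 to 0.187), which included leaving out either control library of the state. It was the 1 gene called of 15 tested in fatty acid oxidation.

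Among the regulators, INSIG1, which holds the SREBP escort SCAP in the endoplasmic reticulum, was lower in SH2 cells with doxycycline, at 29.3 to 81.0 CPM against 127 to 192 CPM in control cells. Its log2 fold change was -1.28 ± 0.34 (edgeR adjusted p = 0.0268), and the call was lost under 3 of 21 alternatives (0.088 to 0.247). MID1IP1, which promotes polymerization of the ACACA protein, was higher in SH2 cells with doxycycline, at 1.51 ± 0.41 (adjusted p = 0.0288), lost under 6 (0.0603 to 0.240). THRSP, its relative, had 94 counts over the untreated SH2 libraries and 0 over the untreated control libraries, so it was at least 12.5-fold higher, taking 3 counts as the floor for the group (adjusted p = 0.0337; lost under 5, 0.0711 to 0.191). INSIG1, MID1IP1 and THRSP kept their direction in the other state and did not pass there. Without doxycycline INSIG1 was at -0.94 (edgeR adjusted p = 0.126) and MID1IP1 at 1.15 (0.104). THRSP had 41 counts over the treated SH2 libraries and 1 over the treated control libraries, a log2 fold change of 4.11. SREBF1 and SREBF2, which encode the SREBP factors, were not called. SREBF1 averaged 26.0 ± 8.04 CPM in treated SH2 cells and 19.8 ± 1.49 CPM in treated control cells, and SREBF2 439 ± 143 CPM and 343 ± 63.9 CPM. Of the 13 genes tested in this list 1 was higher and 1 lower with doxycycline, and 1 was higher and 0 lower without.

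Downstream of the acyl-CoA pool, DGAT2 and AGPAT3, enzymes of triglyceride and phosphatidate synthesis, were lower in SH2 cells in either state. DGAT2 spanned 0 to 9.84 CPM in SH2 libraries, against 25.6 to 32.7 CPM in control libraries, at -3.33 ± 0.78 with doxycycline (edgeR adjusted p = 0.014) and -2.66 ± 0.74 without (0.0433). AGPAT3 spanned 28.3 to 42.1 CPM in SH2 libraries, against 67.6 to 95.9 CPM in control libraries, at -1.05 ± 0.24 (0.0116) and -1.25 ± 0.24 (0.0053). The DGAT2 calls were lost under 2 and 10 of 21 alternatives (0.0582 to 0.216) and the AGPAT3 calls under 4 and 2 (0.05002 to 0.193). MBOAT7, a phosphatidylinositol acyltransferase, had 40 counts over treated SH2 libraries and 0 over treated control libraries, at least 6.94-fold higher against the same floor (adjusted p = 0.037, lost under 7 of the 17 alternatives that gave a value). MBOAT7 carries 3 gene IDs. The ID tested had 78 counts over all 12 libraries and the others had 1 count each, so assigned reads were hardly split between them. Whether MBOAT7 reads were lost among the non-unique alignments was not tested. ACSL1, another acyl-CoA synthetase, was lower without doxycycline at -1.46 ± 0.42 (0.0463), a call lost under 12 of 21 alternatives (0.0513 to 0.209), and SLC27A5, a fatty acid transporter with CoA ligase activity, was lower with it at -1.58 ± 0.32 (0.00539), lost under 2. In the other state these genes had the same sign and did not pass. ACSL1 was at -0.62 with doxycycline (0.397), SLC27A5 at -0.73 (0.223) and MBOAT7 at 6.10 (0.0675) without. Of 18 cholesterol synthesis genes tested, LSS was lower with and MSMO1 higher with doxycycline, at -1.76 ± 0.35 (0.00461) and 1.91 ± 0.40 (0.00679). Without doxycycline 4 were lower, LSS at -1.56 ± 0.34, MVK at -1.09 ± 0.31, SC5D at -2.10 ± 0.44 and DHCR7 at -1.36 ± 0.28, and 0 were higher. In the state where they were not called, the sign was the same. MSMO1 was at 1.13 (0.0934) without doxycycline. MVK was at -0.46 (0.392), SC5D at -1.18 (0.111) and DHCR7 at -0.82 (0.0847) with it. Calls were lost under 12 alternatives for MVK (0.0501 to 0.340), 3 for LSS without doxycycline, 2 for SC5D, 2 for DHCR7 and 1 for MSMO1. Of the AMP-activated kinase (5) and mitochondrial fatty acid synthesis (6) genes tested, 0 were called in any comparison.

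**Figure D4:**
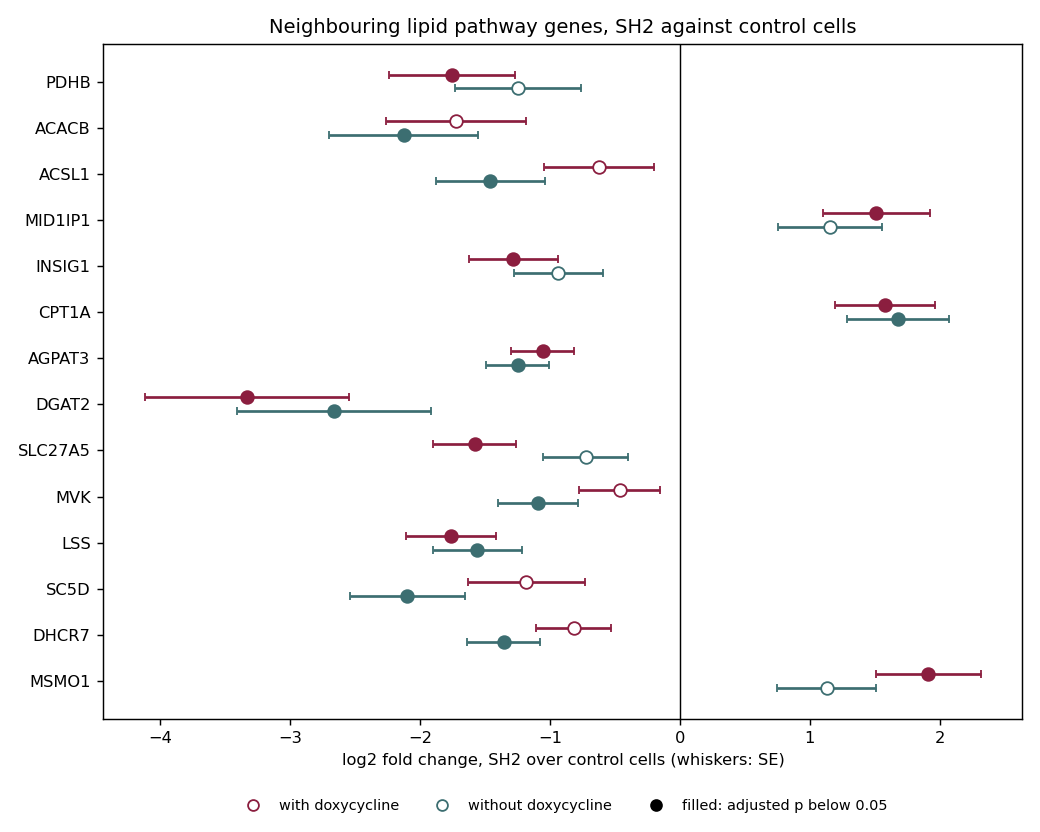
Log2 fold change of SH2 over control cells for 14 called genes of the neighbouring lipid pathways, with doxycycline (upper point) and without (lower point), with the SE as whiskers; filled points have an edgeR adjusted p below 0.05. CPT1A, AGPAT3, DGAT2 and LSS are filled in either state. THRSP and MBOAT7, which had 0 counts in a control group, are left out.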

How the data were processed

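Counts of whole reads per gene were deposited for 12 libraries, made per the labels' protocols with a QuantSeq kit that reads the end of each transcript. The submitters' processing notes name FastQC, STAR, HTSeq, DESeq2 and hg38 (GRCh38). Tool versions and annotation: not given in the sources used here. The 5 HTSeq summary lines of each table were kept out of library sizes. They held 42.2% to 63.8% non-unique alignments, 3.25% to 7.73% reads with no gene and 1.11% to 1.62% ambiguous ones. A table of normalized signal, made by the authors, gave whole reads for 100% of values (tolerance 0.01) once divided by a constant per library. These reads matched the deposited counts, and testing them called 2 genes in SH2 cells with against without doxycycline. Gene names come from that table.

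The fit used R 4.3.3 and edgeR 4.0.16 (filterByExpr by group, minimum count 10; TMM; robust quasi-likelihood; all 12 libraries, 1 term per group), and Benjamini-Hochberg adjustment over 11968 genes. Levels are CPM on TMM-scaled library sizes. A lower bound on a fold covers counting error only, as reads that lack molecular identifiers may be PCR copies. The code was tested on simulated data. The members and the 10 lists were chosen with earlier results of these data known. Named were all members, IGF2BP1, and of each list the genes past the threshold in a comparison, otherwise at most the 2 with the smallest p. IGKC, SREBF1 and SREBF2 lie outside this rule and were picked with their values in view.

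Replicates had their own sort and treatment, per the design text, and none matched another within sampling noise (chi-square per degree of freedom 8.64 to 50.4). Set numbers are from the labels. Same-set SH2 libraries deviated from their group means together (correlation 0.188 to 0.663, all 4 above 0.1; other sets -0.548 to 0.272), so the numbers pair the samples; the fit had no set term. Alternatives were DESeq2 size factors, no filter, a block for the set, DESeq2 1.42.0 (Wald), the compared groups alone, limma-trend (limma 3.58.1, pseudocount 1) on the deposited table, no SH2 library of set 4, sets 2 and 4 only, and leaving out each library. Promoters are RefSeq sequences.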

Additional observations from a re-analysis of the deposited data

Results flagged for a closer look

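FASN in untreated SH2 cells had 1 library far from the others: set 2 was at 164 CPM, while the other 3 were at 74.2 to 80.3 CPM. The gap was 0.932 of the range of the group, above the value of 0.829 that chance exceeds in about 1 of 20 groups; 20 groups of 4 were tested and 1 was found.

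For FADS2 and ACSL3 the libraries with doxycycline were lower in 4 of 4 SH2 sets and higher in 2 of 2 control sets. The difference between the responses was -0.94 on the log2 scale for FADS2 (edgeR adjusted p = 1) and -0.64 for ACSL3 (edgeR adjusted p = 1), and neither passed.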

How the results depend on the processing

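In the comparisons with against without doxycycline, and for the difference between the responses, 0 members and 0 list genes were called under every alternative run. In SH2 against control cells with doxycycline, where 1 member was called, it was 2 with no filter, 2 with DESeq2 and 0 on the compared groups alone, and 0 to 2 when a library was left out. Without doxycycline, where it was also 1, it was 3 with no filter, 2 with the set as a block, 2 on the compared groups alone, 0 in sets 2 and 4 only, and 0 to 2 when a library was left out. The block changed no other call of a member. List genes called without doxycycline were 10, against 16 with the block, 1 in sets 2 and 4 only and 0 to 12 when a library was left out. With doxycycline they were 10, against 5 on the compared groups alone, 6 in sets 2 and 4 only and 2 to 12 when a library was left out.

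Members kept the sign of their log2 fold change in 425 of 440 refits other than leaving out a library, and in 550 of 600 with a library left out; the cause of the reversals was not tested. Without both SH2 libraries of set 4, SH2 cells with against without doxycycline gave 0.063 for ACLY and 0.046 for SCD, the difference of responses 0.011 for SCD and 5.8e-05 for ELOVL6, and SH2 against control cells 0.048 for FADS1 with and 0.15 for ELOVL5 without doxycycline. In sets 2 and 4 only, SH2 cells with against without doxycycline gave 0.64 for ACACA and 0.13 for ELOVL1, the difference of responses -0.16 for ACLY and 0.12 for ACACA, and SH2 against control cells without doxycycline -0.38 for ACACA. Control cells gave -0.038 for SCD with the block and -0.064 with limma-trend. SH2 against control cells without doxycycline gave 0.0035 for ELOVL1 with the block and 0.027 for ELOVL5 with no filter.

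Where leaving out a library turned the sign or moved the value by over 1.5 times, the ranges in SH2 cells with against without doxycycline were -0.16 to 0.089 for ACLY, -0.51 to 0.14 for ACACA, -0.46 to 0.020 for FASN, -0.42 to 0.11 for SCD, -0.25 to 0.068 for ELOVL1, -0.36 to 0.087 for ELOVL5, -0.56 to -0.27 for ELOVL6, -0.63 to -0.22 for FADS2. In control cells they were -0.46 to 0.12 for ACLY, -0.080 to 1.51 for ACACA, -0.37 to 0.11 for FASN, -0.73 to 0.54 for SCD, -0.29 to 0.70 for ELOVL1, -0.096 to 0.62 for ELOVL5, -0.70 to 0.18 for ELOVL6, -0.16 to 0.031 for FADS1, -0.85 to 1.40 for FADS2. For the difference of responses they were -0.16 to 0.42 for ACLY, -1.68 to -0.092 for ACACA, -0.44 to 0.19 for FASN, -0.67 to 0.60 for SCD, -0.75 to 0.24 for ELOVL1, -0.80 to -0.085 for ELOVL5, -0.60 to 0.28 for ELOVL6, -1.87 to 0.38 for FADS2. For SH2 against control cells with doxycycline they were -0.82 to -0.22 for ACACA, -0.83 to 0.44 for SCD, -0.90 to 0.093 for ELOVL1, -0.78 to -0.11 for ELOVL5, 0.39 to 1.28 for ELOVL6, -0.37 to 0.047 for FADS1, -0.071 to 1.92 for FADS2, -0.33 to -0.098 for ACSL3. Without it they were -0.40 to 1.19 for ACACA, -0.46 to 0.22 for SCD, -0.28 to 0.0011 for ELOVL1, -0.30 to 0.32 for ELOVL5, 0.45 to 0.84 for FADS1, 0.97 to 2.47 for FADS2. Counts of all genes called also moved: in SH2 cells 2, against 47 with no filter, 6 with the block, 16 with DESeq2, 0 on the compared groups alone and in sets 2 and 4 only, 1 without both set 4 libraries, and 0 to 3 when a library was left out. In control cells they were 0, against 3 with no filter, and for the difference of responses 0, against 3 with no filter, 1 with the block and 2 with DESeq2. In SH2 against control cells with doxycycline they were 1326, against 2171 with the block, 789 on the compared groups alone, 652 in sets 2 and 4 only and 645 to 1462 when a library was left out. Without it they were 938, against 1449 with no filter, 1505 with the block, 413 in sets 2 and 4 only and 343 to 1202 when a library was left out. ACACA had the fewest counts, 15 to 60 a library; counting error was not separated from the spread between libraries.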

Other observations

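The genes below are among those with the smallest p-values in the neighbouring lists. They had an edgeR adjusted p of 0.983 in SH2 cells with against without doxycycline, so none passed. The groups overlapped for each (means with SD and range, n = 4, and log2 fold change with SE). LPCAT3, which places polyunsaturated chains into phospholipids, averaged 28.5 ± 28.7 CPM (6.92 to 70.7) in treated and 12.1 ± 3.13 CPM (9.07 to 16) in untreated SH2 cells, at 1.24 ± 0.54. Its lowest treated library lay below all untreated ones. ACADVL, of fatty acid oxidation, averaged 87.5 ± 35.4 CPM (64.2 to 140) in treated and 57.1 ± 8.97 CPM (46.3 to 66.1) in untreated SH2 cells, at 0.62 ± 0.27. HADHB, of the same list, averaged 49.3 ± 13.4 CPM (31.3 to 61.2) in treated and 32.8 ± 5.49 CPM (27.9 to 40.2) in untreated SH2 cells, at 0.58 ± 0.25. ACACB averaged 6.56 ± 5.52 CPM (3.35 to 14.8) in treated and 2.88 ± 1.06 CPM (1.64 to 4.21) in untreated SH2 cells, at 1.17 ± 0.51. PRKAB2, a subunit of the AMP-activated kinase, averaged 29.6 ± 10.2 CPM (15.9 to 40.4) in treated and 16.4 ± 8.08 CPM (9.84 to 27.9) in untreated SH2 cells, at 0.85 ± 0.36. MBTPS2, of the SREBP list, averaged 6.79 ± 1.29 CPM (5.27 to 8.38) in treated and 10.4 ± 1.97 CPM (8.01 to 12.3) in untreated SH2 cells, at -0.62 ± 0.31. In control cells it was also lower with doxycycline, at -0.75 ± 0.45, and did not pass. MLX, a partner of ChREBP, averaged 23.6 ± 19.5 CPM (6.4 to 45.2) in treated and 52.4 ± 20.6 CPM (28.5 to 78.8) in untreated SH2 cells, at -1.16 ± 0.58. LSS averaged 11.2 ± 2.64 CPM (7.41 to 13.5) in treated and 17.6 ± 5.87 CPM (9.43 to 22.3) in untreated SH2 cells, at -0.66 ± 0.30.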
